A study of Homo sapiens with 3 samples.

Results

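Tight junctions seal the space between neighbouring epithelial cells, and the 10 genes described here encode parts of that seal and of the epithelial cell surface around it: EPCAM, CLDN1, CLDN3, CLDN4, CLDN7, OCLN, TJP1, F11R, SPINT1 and MARVELD2. They were measured in SKOV-3 cells, a human ovarian cancer cell line, that stably expressed G9a shRNA1, G9a shRNA2 or a luciferase control shRNA (Luc shRNA) after lentiviral infection and 2 weeks of puromycin selection. G9a adds methyl groups to histone H3 at a lysine where methylation accompanies gene silencing. One Affymetrix array was run for each of these 3 conditions, which leaves no replicate error for any value below and bounds the precision. The genes were chosen from log2 ratios of these same arrays, each G9a shRNA array to the Luc shRNA array, so their values are a description and no test was made on them. A gene was found through probe sets whose annotation holds its symbol alone. This gave 18 probe sets for 9 of the 10 genes, out of 41097 such probe sets for 19775 genes in all. No probe set was linked to F11R, which encodes the junctional adhesion molecule JAM-A, and it was not analysed here.

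Claudins are small membrane proteins that span the bilayer several times and pair across the gap between cells, where the mix of claudins sets how tight the seal is and which ions cross it. Occludin (OCLN) and tricellulin (MARVELD2) are MARVEL domain proteins of the same strands, tricellulin sitting where the corners of neighbouring cells meet, and ZO-1 (TJP1) is the scaffold under the membrane that ties the strands to actin. EPCAM is an adhesion protein of simple epithelia that binds claudin-7 directly, and SPINT1 encodes HAI-1, a membrane-anchored inhibitor of the serine protease matriptase and of the activator of hepatocyte growth factor. Epithelial tumours of the ovary commonly express EPCAM, claudin-3 and claudin-4, and loss of such genes accompanies epithelial-mesenchymal transition.

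Values were used as deposited, as linear MAS5 signals in arbitrary units. A signal is comparable between arrays for 1 probe set, not between probe sets. Unless another probe set is named, the brightest one by mean log2 signal stands for the gene. All 9 genes passed the filter, a signal on at least 1 array that reached the median of the whole table (11.96), and 8 of them also reached the 75th percentile (89.7). CLDN7 passed the lower filter on the Luc shRNA array alone. The spread between the 2 G9a shRNA arrays gives the nearest thing to an error, although it includes real differences between the shRNAs. Past the 75th percentile their log2 difference spread with an SD of 0.25, and dimmer probe sets down to the median had an SD of 0.86.

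EHMT2, which encodes G9a, had a signal of 29.7 in G9a shRNA1 cells and 79.2 in G9a shRNA2 cells, against 182 in Luc shRNA cells. A dimmer EHMT2 probe set past the filter was lower by less and had the shRNAs in the other order, with 23.9 in G9a shRNA1 cells and 16.4 in G9a shRNA2 cells, against 27.6 in Luc shRNA cells, or log2 fold changes of -0.21 and -0.75. The dimmest EHMT2 probe set lay under the median on all 3 arrays. It had 2.03 and 8.49 with the G9a shRNAs, against 2.05 with Luc shRNA. Array medians ran from 11.7 to 12.3, and quantile normalization moved the median gene past the 75th percentile by -0.13 in the G9a shRNA2 comparison. The control probe sets for β-actin gave a 3′ to 5′ signal ratio of 1.83 in G9a shRNA1 cells and 1.47 in G9a shRNA2 cells, against 3.68 in Luc shRNA cells. The same ratio for GAPDH was 1.12 and 1.14 with the G9a shRNAs, against 1.15 with Luc shRNA. The part of the β-actin difference in the results below was not tested. Of 5 markers of the epithelial line 4 passed the 75th percentile, the keratin genes KRT7, KRT8 and KRT18 and the receptor gene ERBB2. The other, KRT19, passed the median alone, with a highest signal of 49.9. All 5 measured leukocyte markers lay under the median on all 3 arrays, with a summed signal of 18.0 in G9a shRNA1 cells and 22.3 in G9a shRNA2 cells, against 17.3 in Luc shRNA cells. Of the markers of endothelium 4 of 5 lay under the median on all arrays, of fibroblasts 4 of 6 and of mesothelium 1 of 6. The summed signals of the endothelial markers were 37.7 and 48.9 with the G9a shRNAs, against 27.3 with Luc shRNA. Those of the fibroblast markers were 51.8 and 33.3 with the G9a shRNAs, against 42.8 with Luc shRNA, and those of the mesothelial markers 176 and 183, against 168. The highest signal of any of these non-epithelial markers was 72.7, and their part in the results was not tested. In such bulk RNA, fewer cells that express a gene and less RNA per cell cannot be told apart.

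Of the 9 measured genes, SPINT1 was more than 2-fold higher with both G9a shRNAs and CLDN7 was more than 2-fold lower with both. Among all 13192 genes past the filter, 2.57% were past 2-fold higher with both and 1.66% were past 2-fold lower with both. With G9a shRNA1 alone EPCAM and SPINT1 were past 2-fold higher, against 4.21% of all genes, and CLDN7 was past 2-fold lower, against 5.1%. With G9a shRNA2 alone CLDN4 and SPINT1 were past 2-fold higher, against 4.35% of all genes, and CLDN7 was past 2-fold lower, against 3.58%. Of the 8 genes past the 75th percentile SPINT1 alone was past 2-fold higher with both, against 0.611% of all such genes. Past 2-fold lower with both were 0, against 0.467%. SPINT1 reached that percentile with both G9a shRNAs and not with Luc shRNA, so it had to be higher with both there. These genes were picked from the same ratios, so nothing is read from these shares. At any size, 6 of the 9 were higher with both shRNAs (EPCAM, SPINT1, CLDN1, CLDN4, OCLN and MARVELD2), 2 were lower with both (CLDN7 and TJP1), and CLDN3 lay on opposite sides. Of all genes past the filter, 44% were higher with both, 30.8% were lower with both and 25.3% lay on opposite sides. The 2 comparisons share the Luc shRNA array. Averaging the log2 fold changes of both shRNAs for each gene gave a median of 0.39 over the 9 genes, against 0.05 over all 13192 genes. That median was 0.17 when a gene's probe sets were averaged instead of taking the brightest.

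**Figure D1:**
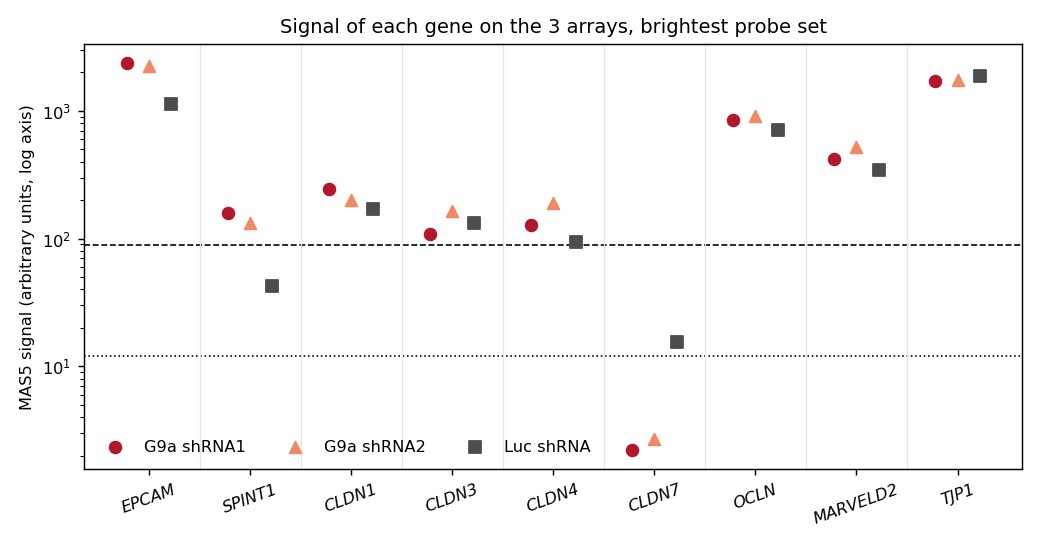
MAS5 signal (y axis, arbitrary units, log axis) of the 9 measured genes at the brightest probe set, 1 point per array: G9a shRNA1 (circles), G9a shRNA2 (triangles) and Luc shRNA (squares). The dotted line marks the median of all values (11.96) and the dashed line the 75th percentile (89.7); SPINT1 lies under the dashed line on the Luc shRNA array alone, and CLDN7 lies over the dotted line on the Luc shRNA array alone.

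Among the surface proteins, EPCAM had a signal of 2350 in G9a shRNA1 cells and 2226 in G9a shRNA2 cells, against 1128 in Luc shRNA cells. Both G9a shRNA arrays lay well above the control and within 0.08 of each other on the log2 scale. The log2 fold changes were 1.06 and 0.98, or 2.08-fold and 1.97-fold, so that EPCAM was past the 2-fold line with one shRNA and just short of it with the other. With each array centred on its median they were 0.99 and 0.96, short of 2-fold with both. EPCAM has 1 probe set with a single symbol, so there is no other to set beside it. Ranked by the smaller of the 2 changes, EPCAM stood at 58 from the top and SPINT1 at 13. This was among the 8348 genes past the 75th percentile. The ranks use the ratios that picked these genes, so nothing is read from them. SPINT1 reached that percentile through the G9a shRNA arrays alone, so it had to be higher.

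SPINT1 had a signal of 157 in G9a shRNA1 cells and 131 in G9a shRNA2 cells, against 42.7 in Luc shRNA cells. Both G9a shRNA arrays were above the 75th percentile of all values and the control was below it. The log2 fold changes were 1.88 and 1.62, or 3.68-fold and 3.07-fold. Across the scalings tried the pair stayed between 1.48 and 1.88. The other, dimmer SPINT1 probe set did not follow: its signal was 30.9 with G9a shRNA1 and 30.3 with G9a shRNA2, against 30.6 with Luc shRNA. With both probe sets averaged the log2 fold changes were 0.95 and 0.80, short of 2-fold. RefSeq (GRCh38.p14) gives SPINT1 a pair of start sites on chromosome 15, plus strand, and the windows around both are shown because SPINT1 is the member past 2-fold higher with both shRNAs. Each runs from 250 bases before the start to 50 after it, chr15:40843798-40844097 for the upstream start and chr15:40844227-40844526 for the downstream start. Capitals mark CAGGTG or its reverse complement CACCTG, the E-box bound by the SNAI and ZEB repressors of epithelial genes.
SPINT1 upstream start: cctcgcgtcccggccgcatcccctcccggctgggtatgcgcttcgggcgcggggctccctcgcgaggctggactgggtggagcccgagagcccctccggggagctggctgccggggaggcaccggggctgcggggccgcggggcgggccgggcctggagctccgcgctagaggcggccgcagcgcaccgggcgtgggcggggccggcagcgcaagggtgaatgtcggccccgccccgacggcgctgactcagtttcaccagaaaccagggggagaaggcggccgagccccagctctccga
SPINT1 downstream start: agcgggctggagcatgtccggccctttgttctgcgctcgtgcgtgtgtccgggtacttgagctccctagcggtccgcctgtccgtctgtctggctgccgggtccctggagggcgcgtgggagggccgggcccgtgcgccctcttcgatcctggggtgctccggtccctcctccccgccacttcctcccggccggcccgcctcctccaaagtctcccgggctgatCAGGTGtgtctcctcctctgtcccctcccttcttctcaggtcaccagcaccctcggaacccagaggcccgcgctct
The upstream window holds 38 CG dinucleotides and no match, and the downstream window holds 25 CG dinucleotides and 1 match, at position 225 of 300. Windows for 8 of the 10 genes were in the RefSeq set, which has none here for EPCAM or F11R. Of their 14 windows, 6 hold at least 1 match, in OCLN, CLDN3, TJP1, SPINT1 and CLDN7, as do 20.6% of all 35116 RefSeq promoter windows of that length. A match is a run of letters and not a measured binding site.

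The 4 claudins did not move alike. CLDN4 had a signal of 129 in G9a shRNA1 cells and 189 in G9a shRNA2 cells, against 93.7 in Luc shRNA cells. Both G9a shRNA arrays were higher than the control, and G9a shRNA2 the more so. The log2 fold changes were 0.46 and 1.01, the pair differing by -0.55, with G9a shRNA2 at 0.99 after median centring and 0.85 after quantile normalization. The other CLDN4 probe set lay under the median on all 3 arrays, with a highest signal of 2.56. CLDN3 had a signal of 108 in G9a shRNA1 cells and 164 in G9a shRNA2 cells, against 132 in Luc shRNA cells. The control thus lay between the G9a shRNA arrays, at log2 fold changes of -0.30 and 0.31. The other CLDN3 probe set gave the same order, with 80.1 and 135 with the G9a shRNAs, against 116 with Luc shRNA. The suffix of that probe set, _x_at, marks probes that may also match other transcripts. The mean of the 2 shRNAs for CLDN3 was 0.01 as deposited, -0.04 after median centring and -0.08 after quantile normalization.

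CLDN3 and CLDN4 are next to each other among protein-coding genes on chromosome 7, and encode the receptors of Clostridium perfringens enterotoxin. Both gave a lower log2 fold change with G9a shRNA1 than with G9a shRNA2, a difference of -0.61 for CLDN3 and -0.55 for CLDN4. The median gene past the 75th percentile gave 0.0035 with G9a shRNA1 and 0.13 with G9a shRNA2. After quantile normalization CLDN3 gave -0.32 and 0.16, and CLDN4 gave 0.43 and 0.85. Among probe sets past the 75th percentile, 95% of the absolute differences between these arrays were under 0.58. Their promoter windows are shown because these neighbours lay on different sides of the control with G9a shRNA1. They are chr7:73770221-73770520 on the minus strand for CLDN3 and chr7:73830746-73831045 on the plus strand for CLDN4 (GRCh38.p14, capitals as above).
CLDN3: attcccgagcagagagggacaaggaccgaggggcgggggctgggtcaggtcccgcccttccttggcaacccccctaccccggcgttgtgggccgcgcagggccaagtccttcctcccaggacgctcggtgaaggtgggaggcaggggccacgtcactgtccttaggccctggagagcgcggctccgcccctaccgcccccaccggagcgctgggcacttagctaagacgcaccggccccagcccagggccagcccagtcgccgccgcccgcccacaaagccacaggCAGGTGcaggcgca
CLDN4: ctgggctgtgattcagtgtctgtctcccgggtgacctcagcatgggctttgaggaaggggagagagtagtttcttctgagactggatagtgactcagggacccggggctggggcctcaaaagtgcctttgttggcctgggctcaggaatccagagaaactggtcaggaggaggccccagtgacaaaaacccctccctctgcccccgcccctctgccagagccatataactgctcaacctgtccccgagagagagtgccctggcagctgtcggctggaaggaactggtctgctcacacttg
The CLDN3 window holds 24 CG dinucleotides and 1 match to the E-box, at position 287. The CLDN4 window holds 5 CG dinucleotides and no match. Over all RefSeq windows the median was 14 CG dinucleotides, and the middle 50% of windows held 4 to 28.

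CLDN1, a claudin of the epidermal barrier, had a signal of 246 in G9a shRNA1 cells and 202 in G9a shRNA2 cells, against 170 in Luc shRNA cells. The G9a shRNA arrays were both above the control, by log2 fold changes of 0.54 and 0.25. Its other probe set was dimmer and did not keep that order, with 32.3 with G9a shRNA1 and 19.3 with G9a shRNA2, against 20.3 with Luc shRNA.

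CLDN7, the binding partner of EPCAM, went the other way. Its signal was 2.22 with G9a shRNA1 and 2.71 with G9a shRNA2, against 15.4 with Luc shRNA. The Luc shRNA array was a little over the median of all values and both G9a shRNA arrays were under it. The log2 fold changes were -2.79 and -2.51 as deposited. With signals under the median raised to it they were -0.37 with both, short of 2-fold. CLDN7 has 1 probe set with a single symbol, and since it passed the filter through the control array alone, the G9a shRNA arrays had to be lower. Its window at the downstream start, chr17:7262429-7262728 on the minus strand (GRCh38.p14), is shown because it holds more of the E-box than any other window of these genes.
CLDN7 downstream start: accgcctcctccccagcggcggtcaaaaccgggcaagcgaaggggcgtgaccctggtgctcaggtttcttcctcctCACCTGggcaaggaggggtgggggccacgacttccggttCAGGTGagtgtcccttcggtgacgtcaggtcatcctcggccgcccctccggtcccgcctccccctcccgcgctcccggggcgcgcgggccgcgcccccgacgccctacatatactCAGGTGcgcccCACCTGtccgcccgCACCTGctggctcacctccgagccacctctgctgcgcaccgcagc
It holds 5 matches, at positions 77, 116, 231, 242 and 256 of 300, and 30 CG dinucleotides. As many as 5 or more matches are found in 33 of the 35116 RefSeq windows, or 0.094%. The window at the upstream start of CLDN7 holds none and has 10 CG dinucleotides.

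**Figure D2:**
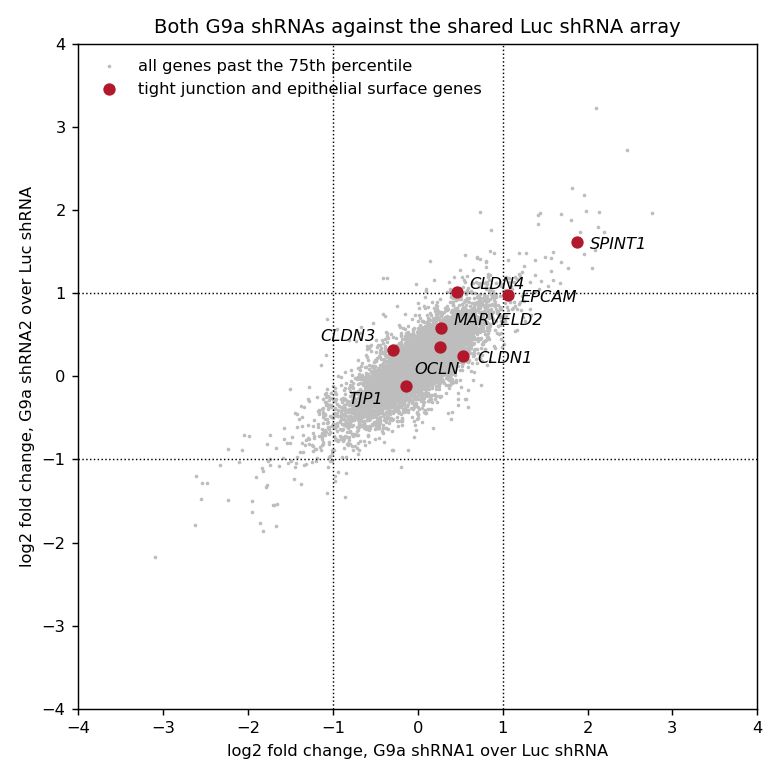
Each axis is a log2 fold change over Luc shRNA, G9a shRNA1 on x and G9a shRNA2 on y, drawn for the 8348 genes past the 75th percentile (grey, 1 point per gene) and for the 8 of the 9 measured genes among them (red, labelled). Dotted lines mark 2-fold; SPINT1 lies past both lines at 1.88 and 1.62, EPCAM lies past the G9a shRNA1 line alone at 1.06 and 0.98, and TJP1 lies below 0 with both. CLDN7 is not drawn because its signals are under that percentile.

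The MARVEL domain proteins of the junction strands were higher by less. OCLN had a signal of 845 in G9a shRNA1 cells and 902 in G9a shRNA2 cells, against 706 in Luc shRNA cells. Both G9a shRNA arrays lay above the control by close amounts, with log2 fold changes of 0.26 and 0.35. A pair of its other probe sets also past the 75th percentile gave 0.42 and 0.45, and 0.11 and 0.39. The dimmest of its 4 probe sets lay on the other side, with 34.9 and 37.4 with the G9a shRNAs, against 45.1 with Luc shRNA. OCLN has a pseudogene, OCLNP1, on the same chromosome, and whether its transcripts reach these probes was not tested.

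MARVELD2, next to OCLN on chromosome 5, had a signal of 419 in G9a shRNA1 cells and 517 in G9a shRNA2 cells, against 346 in Luc shRNA cells. The log2 fold changes were 0.27 and 0.58, and its other probe set gave 0.22 and 0.26. All 4 values were above 0, and both genes stayed above 0 with both shRNAs after median centring and after quantile normalization. For OCLN these gave 0.19 and 0.34, and 0.29 and 0.24. For MARVELD2 they gave 0.20 and 0.56, and 0.30 and 0.45.

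TJP1, the scaffold, had a signal of 1711 in G9a shRNA1 cells and 1734 in G9a shRNA2 cells, against 1880 in Luc shRNA cells. The G9a shRNA arrays were nearly level with each other and slightly under the control, at log2 fold changes of -0.14 and -0.12. That is within the SD of 0.25 between the 2 G9a shRNA arrays. Its other probe set lay on the other side, with 61.1 and 74.6 with the G9a shRNAs, against 52.0 with Luc shRNA, so the direction for TJP1 depends on the probe set. With both averaged the log2 fold changes were 0.05 and 0.20.

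**Figure D3:**
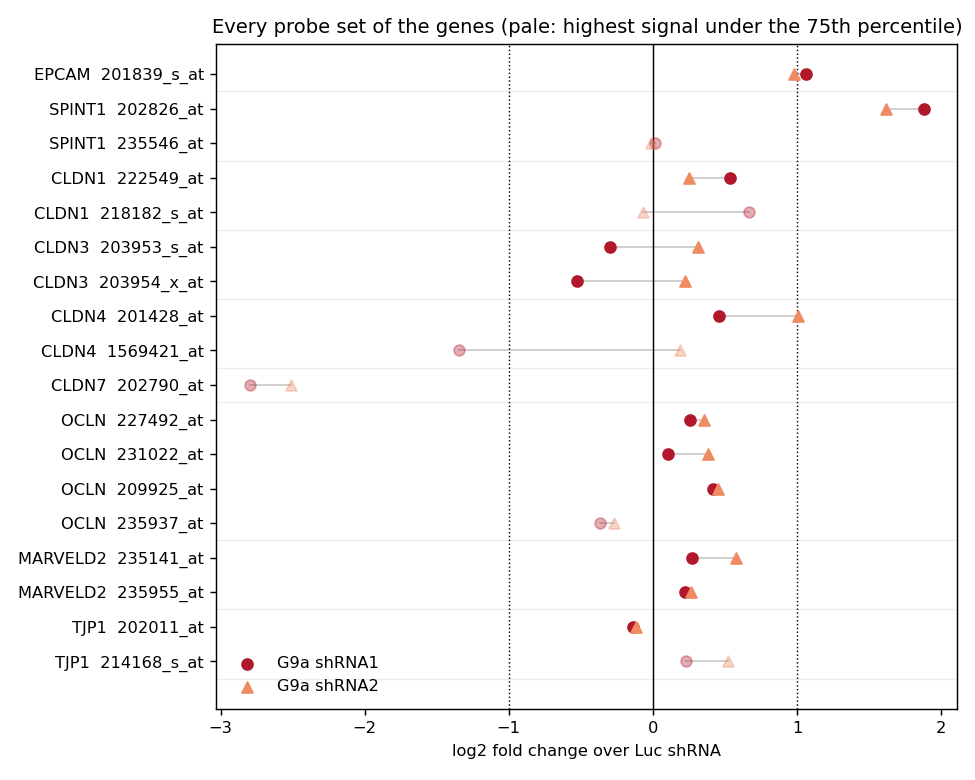
Log2 fold change over Luc shRNA (x axis) at each of the 18 probe sets of the 9 genes (rows), circles for G9a shRNA1 and triangles for G9a shRNA2, each from 1 array. Pale symbols have a highest signal under the 75th percentile and dotted lines mark 2-fold; the SPINT1 probe sets lie at 1.88 and 1.62, and at 0.01 and -0.01, and the CLDN7 probe set lies furthest below 0.

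Other parts of the junction were taken from lists of genes by role, each described by its members past the filter. To set beside them, 44% of all 13192 genes past the filter were higher with both shRNAs and 30.8% were lower with both. Past 2-fold these shares were 2.57% and 1.66%, and the median of the mean log2 fold change was 0.05. The lists were chosen with earlier results of these data known, so nothing is read from their counts. Of 17 other claudins 16 were measured and 9 passed. Of these 6 were higher with both shRNAs and 1 was lower with both, and CLDN16, a claudin of the kidney that conducts magnesium, was past 2-fold higher with both. Its signal was 18.9 with G9a shRNA1 and 19.2 with G9a shRNA2, against 8.80 with Luc shRNA, and its log2 fold changes of 1.10 and 1.12 became 0.66 and 0.68 once the floor at the median was set. CLDN12, the single other claudin past the 75th percentile, gave 0.24 and 0.12, and -0.01 with G9a shRNA2 after quantile normalization. The median log2 fold change of the 9 was 0.24, and 0.18 with the floor. CLDN9 and CLDN16 reached the filter with both G9a shRNAs and not with Luc shRNA, so they had to be higher with both. CLDN6 reached it with G9a shRNA2 alone, so it had to be higher with that shRNA. CLDN17 and CLDN18 reached the filter with G9a shRNA1 alone, so they had to be higher with that one. CLDN2, the 1 lower with both, reached it with Luc shRNA alone, so it had to be lower.

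Of 12 other membrane proteins of tight junctions 11 were measured and 7 passed the filter, 5 of them higher with both shRNAs and 1 lower with both. MARVELD3, the remaining member of the occludin and tricellulin family at tight junctions, had a signal of 59.1 in G9a shRNA1 cells and 39.4 in G9a shRNA2 cells, against 16.8 in Luc shRNA cells. A further MARVELD3 probe set gave 40.5 and 54.3 with the G9a shRNAs, against 5.87 with Luc shRNA. A dimmer MARVELD3 probe set lay under the median on all arrays. Both probe sets past the filter were thus past 2-fold higher with both shRNAs, the brighter at log2 fold changes of 1.82 and 1.23. The other of them reached the filter through the G9a shRNA arrays alone, so it had to be higher with both. MARVELD1 also passed 2-fold with both, but its signals of 8.02 and 15.0 with the G9a shRNAs, against 1.08 with Luc shRNA, lay around or under the median of all values and gave 0 and 0.32 with the floor at the median. MARVELD1 reached the filter with G9a shRNA2 alone, so it had to be higher with that shRNA. The list median was 0.40, and 0.31 after quantile normalization or with the floor.

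Of 16 scaffold and plaque proteins 12 were measured and 11 passed the filter, none of them past 2-fold with both shRNAs, 5 higher with both and 2 lower with both. CGNL1, which encodes the junction plaque protein paracingulin, had a signal of 60.6 in G9a shRNA1 cells and 156 in G9a shRNA2 cells, against 285 in Luc shRNA cells. Its log2 fold changes were -2.23 and -0.87, and -2.24 and -1.01 after quantile normalization, past 2-fold with both under that scaling alone of the scalings tried. A dimmer CGNL1 probe set lay on the other side, at 26.9 and 28.1 with the G9a shRNAs, against 7.11 with Luc shRNA. That probe set reached the filter through the G9a shRNA arrays alone, so it had to be higher with both. CGN (cingulin), the paralog of CGNL1, gave 0.13 and 0.27. YBX3, a transcription factor that binds ZO-1, gave 0.23 and 0.18, and SYMPK (symplekin) gave 0.10 and 0.25. Dimmer SYMPK probe sets past the filter gave 0.14 and 0.02, and -0.17 and 0.06. The median of the 11 was 0.15.

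All 13 genes of the apical polarity complexes were measured and passed the filter, 5 higher with both shRNAs and 5 lower with both. A pair of paralogs that encode adaptors of the Par complex with atypical protein kinase C lay past 2-fold on opposite sides. PARD6A had a signal of 83.7 in G9a shRNA1 cells and 71.5 in G9a shRNA2 cells, against 35.3 in Luc shRNA cells. PARD6B had a signal of 81.8 in G9a shRNA1 cells and 80.1 in G9a shRNA2 cells, against 171 in Luc shRNA cells. The log2 fold changes were 1.24 and 1.02 for PARD6A, and -1.06 and -1.09 for PARD6B. With G9a shRNA2, PARD6A gave 0.87 after quantile normalization and 0.9997 after median centring, so that it was not past 2-fold with both under either scaling. The list median was -0.0050 as deposited and -0.06 after quantile normalization.

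Of 11 adherens junction genes 10 were measured and 9 passed, none past 2-fold with both shRNAs. CDH1, which encodes E-cadherin, had a signal of 520.3 in G9a shRNA1 cells and 727 in G9a shRNA2 cells, against 391 in Luc shRNA cells. NECTIN2, an immunoglobulin-type adhesion protein of these junctions, was higher with both at all 4 of its probe sets, at 0.48 and 0.62 for the brightest. NECTIN3, its partner across the gap, gave -0.24 and -0.41, and its other probe set, with 66.3 and 65.8 with the G9a shRNAs, against 139 with Luc shRNA, was past 2-fold lower with both. JUP (plakoglobin) gave 0.12 and 0.44. The list median was 0.06, and its single-shRNA medians were -0.07 for the G9a shRNA1 array and 0.19 for the G9a shRNA2 array.

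Of 20 other epithelial surface genes 19 were measured and 12 passed the filter, 7 higher with both shRNAs and 1, CD24, lower with both. SPINT2, which encodes HAI-2, the paralog of the SPINT1 product, had a signal of 1841 in G9a shRNA1 cells and 2495 in G9a shRNA2 cells, against 1637 in Luc shRNA cells. Its log2 fold changes of 0.17 and 0.61 were smaller than those of SPINT1. ST14, which encodes matriptase, the protease that HAI-1 inhibits, lay under the median on all 3 arrays, with a highest signal of 7.56. TMPRSS4, a protease of the same membrane-bound type, passed 2-fold with both at a signal of 12.7 and 17.9 with the G9a shRNAs, against 5.58 with Luc shRNA, and gave 0.08 and 0.59 with the floor. MUC1, a membrane mucin, gave 0.14 and 0.76, and its other probe sets gave 0.42 and 0.97, and -0.25 and 0.41. CDCP1, a substrate of Src family kinases, gave 0.29 and 0.36. The mucin-type protein gene CD24 was lower with both at all 6 of its probe sets, with 1306 and 2229 with the G9a shRNAs, against 3367 with Luc shRNA at the brightest. The list median was 0.36, and 0.33 with the floor. TMPRSS4 and CEACAM5, a further gene of this list, reached the filter with both G9a shRNAs and not with Luc shRNA. These genes thus had to be higher with both. CEACAM5 had 13.9 and 21.0 with the G9a shRNAs, against 8.84 with Luc shRNA.

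Transcription and splicing factors of epithelial genes did not share a direction. ESRP1, a splicing regulator of epithelial isoforms, had a signal of 41.2 in G9a shRNA1 cells and 39.6 in G9a shRNA2 cells, against 18.5 in Luc shRNA cells. Its log2 fold changes were 1.15 and 1.09, and 1.05 and 0.97 at its other probe set. It was the only one of 5 activators past the filter to lie past 2-fold with both, a call lost after quantile normalization, which gave 0.97 with G9a shRNA2. Among 3 repressors past the filter, SNAI2 was past 2-fold higher with both, with 130 and 132 with the G9a shRNAs, against 55.6 with Luc shRNA. ZEB1 had 286 and 291 with the G9a shRNAs, against 473 with Luc shRNA, log2 fold changes of -0.72 and -0.70, and TWIST1 gave -0.48 and -0.18. Further ZEB1 probe sets past the filter gave -0.53 and -0.08, and 0.00 and 0.31.

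**Figure D4:**
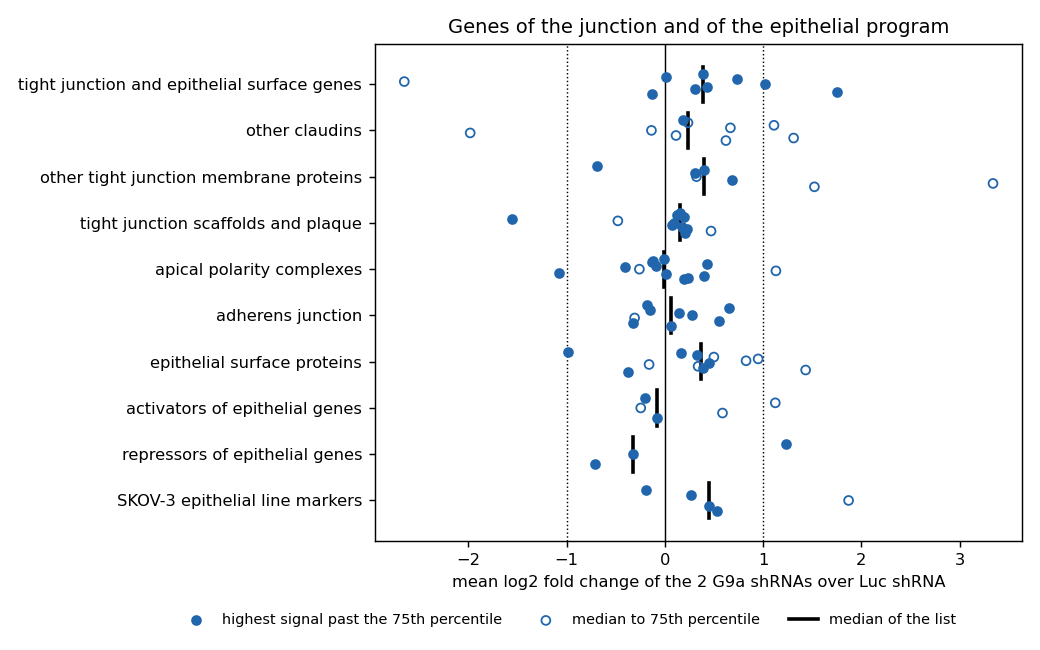
Mean log2 fold change of the 2 G9a shRNAs over Luc shRNA (x axis) for genes past the filter, by list (rows), 1 point per gene. Filled points have a highest signal past the 75th percentile, open points are dimmer but at or over the median, and bars mark list medians. The bar lies at 0.39 for the 9 tight junction and epithelial surface genes, 0.24 for other claudins, 0.15 for scaffolds and -0.0050 for polarity complexes.

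Genes with a pair of log2 fold changes nearest to that of EPCAM were sought among the 8348 genes past the 75th percentile, by Euclidean distance over the 2 comparisons. The 5 nearest were LRRC1, AKR1B10, TAF8, MATR3 and PDK4, at distances of 0.03 to 0.08. LRRC1 and TAF8 reached that percentile with both G9a shRNAs and not with Luc shRNA, so they had to be higher with both. MATR3 reached it with G9a shRNA2 alone, so it had to be higher with that shRNA. LRRC1, a leucine-rich repeat protein related to the polarity protein Scribble, had a signal of 167 in G9a shRNA1 cells and 162 in G9a shRNA2 cells, against 81.4 in Luc shRNA cells. With 3 arrays such likeness holds only the size of the pair of changes.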

How the data were processed

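Total RNA of SKOV-3 cells expressing G9a shRNA1, G9a shRNA2 or Luc shRNA was hybridized by the authors to 1 Affymetrix whole-genome array per condition. The deposited values are probe set intensities that the authors made with MAS5, on a linear scale, and its version and settings are not given in the sources used here. No signal was at or under 0.

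Of 54675 probe sets, 41097 had 1 gene symbol in the array annotation, 1801 had several and 11777 had none, and symbols were updated by Entrez identifier with RefSeq (GRCh38.p14), where 54 had no match. Log2 ratios of both G9a shRNA arrays to the one Luc shRNA array were taken with no pseudocount. The brightest probe set by mean log2 signal stood for a gene, which was kept when its highest signal reached the median of all values (11.96). The size rule was more than 2-fold with both shRNAs, and no p was computed, since each condition has 1 array and the genes were picked from these ratios.

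Named are the 10 genes with all their probe sets, EHMT2, the list genes past 2-fold with both shRNAs or, where a list had fewer than 2 of these, up to 4 with the largest smaller change past the 75th percentile, and the 5 genes nearest to EPCAM. ST14, OCLNP1, CLDN2, CLDN6, CLDN9, CLDN17, CLDN18, CEACAM5, further marker genes and chromosome neighbours were named beside this rule, after their values were seen. The members and lists were chosen with earlier results of these data known. The alternatives tried were other filters, a floor, other scalings, other thresholds, other probe set rules and each shRNA alone. The calling rule was tested on simulated data. The software was numpy 2.4.6 and pandas 2.3.3 under Python 3.11.15.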

Additional observations from a re-analysis of the deposited data

Results flagged for a closer look

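Some probe sets of these genes lay on opposite sides of the Luc shRNA array with the 2 G9a shRNAs, 1 array each, and the difference was not tested. For CLDN3 the log2 fold change with G9a shRNA1 minus that with G9a shRNA2 was -0.61 at its brightest probe set and -0.75 at the other. For the dimmer CLDN1 probe set it was 0.74. For the dimmer SPINT1 probe set it was 0.028, with both values next to 0.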

How the results depend on the processing

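No paired analysis was possible because each condition has 1 array. A value was taken as moved when it changed by more than the SD between the 2 G9a shRNA arrays, and a count when it changed by more than 1.5 times. SPINT1 was the single gene of the 9 past 2-fold higher with both G9a shRNAs, a count of 1, under no filter, quantile normalization, median centring, the floor and the 3-fold threshold. SPINT1 was also the single one of 8 under the stricter filter, which it passed through the G9a shRNA arrays alone. It was the single one of 7 without probe sets ending in _s_at or _x_at. The last setting left no value for EPCAM or CLDN3. The count was 2 at a threshold of 1.5-fold (with EPCAM), 2 with G9a shRNA1 alone (with EPCAM) and 2 with G9a shRNA2 alone (with CLDN4), and 0 when each gene was the mean of its probe sets. CLDN7, the 1 gene past 2-fold lower with both, was lost under the stricter filter (75th percentile) and under the floor (signals below the median raised to it), which left 0 each. The median over the genes ran from 0.17 to 0.41.

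Over all genes, 339 were past 2-fold higher with both shRNAs and 219 lower. The counts were 1212 and 956 with no filter, 51 and 39 under the stricter filter, 126 and 96 with the floor, 902 and 630 at 1.5-fold, and 150 and 71 at 3-fold. With G9a shRNA1 alone they were 556 and 673, and with G9a shRNA2 alone 574 and 472. Past the 75th percentile, 56.7% of the calls were higher as deposited and 42.1% after quantile normalization. Signal over background limits what can be said of CLDN7, MARVELD1, CLDN2, CLDN6, CLDN9, CLDN16, CLDN17, CLDN18, TMPRSS4 and CEACAM5. The same holds for the dimmer CGNL1 probe set.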

Other observations

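Among protein-coding genes in RefSeq order (GRCh38.p14), a pair of measured genes near SPINT1 on chromosome 15 did not share its size of change. VPS18, a subunit of the endosomal tethering complexes, had 145 and 170 with the G9a shRNAs, against 122 with Luc shRNA, and ZFYVE19 had 75.3 and 97.3, against 76.3. Next to CLDN7 on chromosome 17, ELP5, a subunit of the Elongator complex, had 179 and 194 with the G9a shRNAs, against 163 with Luc shRNA, so that it lay above the control where CLDN7 lay under it. ABHD11, beside CLDN3 on chromosome 7, had 147 and 163 with the G9a shRNAs, against 175 with Luc shRNA. Next to CLDN1 on chromosome 3 lie CLDN16, at 1.10 and 1.12 as given above, and TMEM207, under the median on all arrays. Further out, as many genes away on either side, IL1RAP had log2 fold changes of 0.55 and 0.81. P3H2, which lay under the control with both, had -0.87 and -0.46. These neighbours were named after their values were seen, and not every neighbour is given.

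KRT19, a keratin of simple epithelia among the markers of the line, had 49.9 and 48.2 with the G9a shRNAs, against 13.4 with Luc shRNA. It was past 2-fold higher with both. At their brightest probe sets KRT7, KRT8 and KRT18 were higher with both by 0.13 to 0.70 on the log2 scale. ERBB2 was lower with both, at -0.36 and -0.02. Dimmer KRT7 probe sets past the filter gave -0.87 and 0.10, and 0.34 and 0.27. Those of ERBB2 gave 0.10 and 0.36, and -1.11 and -0.35. PECAM1, a marker of endothelium, had 29.9 and 28.5 with the G9a shRNAs, against 15.4 with Luc shRNA at its brightest probe set. Of its other probe sets past the filter, one had 25.8 and 19.8 with the G9a shRNAs, against 9.39 with Luc shRNA. Passed through the G9a shRNA arrays alone, that probe set had to be higher with both. Another, short of the filter with G9a shRNA1, lay on the other side, with 11.3 and 12.3, against 15.8.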
